A study of Mus musculus with 221 samples.

Results

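Factors that remove maternal mRNA were examined as a set of 10 genes, out of 55291 genes in the count table. The set holds Btg4, Cnot7 and Cnot6l of the deadenylation machinery, the AU-rich element binding proteins Zfp36l1 and Zfp36l2, the m6A reader Ythdf2, the terminal uridylyltransferases Tut4 and Tut7, the oocyte poly(A) binding protein Pabpn1l, and Pnrc1, a partner of the decapping enzyme. All but Zfp36l2 and Pnrc1 were listed for their function. These 2 were included because their mRNA was lower in embryos of HFD fathers in these libraries, so their values by diet are given as a description with no test. All 10 passed the filter on low counts, which kept 14820 genes.

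RNA was measured by Smart-seq2, which copies polyadenylated RNA, in single early 2-cell mouse embryos. The embryos came from in vitro fertilization of oocytes that carried C57BL/6N nuclear DNA and Staudach (ST) mitochondrial DNA, in both groups alike. The fathers were C57BL/6N mice given either a high-fat diet (HFD, 38 embryos numbered 31 to 70 in the sample titles and 84 others) or a low-fat diet (LFD, n = 99 embryos). In the study's methods the diets began at 6 weeks of age and lasted 2 weeks, the oocyte donors were 3 to 16 weeks old and superovulated, and the frozen and thawed sperm came from 4 males per diet, with an HFD and an LFD male on each fertilization date and other males on each date. The labels give no sex and tie no embryo to a male or a date, so that embryos of 1 male could not be grouped, p-values measure the spread between embryos only, and differences between males cannot be told apart from the diet. The libraries held between 1937251 and 17246791 counts (median 5706066), and 13 embryos (7 HFD and 6 LFD) had a count in fewer than 16000 genes. Markers of the stage were present, since 61 of 62 listed maternal transcripts and 35 of the 40 2-cell transcripts found in the table exceeded a mean of 1 CPM (counts scaled to a library total of 1000000).

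Mouse oocytes store mRNA that is used during meiotic maturation and is then cleared around the time that the embryonic genome is activated. Clearance begins with shortening of the poly(A) tail by the CCR4-NOT complex, whose catalytic subunits include CNOT7 and CNOT6L. BTG4, a protein made in the maturing oocyte, brings that complex to the mRNA, and PABPN1L binds poly(A) tails and cooperates with BTG4. Proteins of the ZFP36 family bind AU-rich elements in 3′ untranslated regions (UTRs) and recruit CCR4-NOT, YTHDF2 does so at m6A marks, and TUT4 and TUT7 add uridines to short tails, which marks the mRNA for degradation. Because Smart-seq2 primes on poly(A), a shortened tail and a removed transcript cannot be told apart in these counts.

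The element that ZFP36 proteins bind best is the nonamer TTATTTATT in the 3′ UTR, written as DNA. It is shown here in the 2 listed maternal transcripts that hold it and in the 3 members that hold it, to show what the AU-rich binding proteins recognise and that the mRNAs of Zfp36l1 and Zfp36l2 carry the element themselves. Each window has 25 bases on the strand of the mRNA, in the GENCODE transcript models of build GRCm38, with the nonamer in capitals.
Ccnb1 (chr13:100779238-100779262, minus strand): ttatgtaaTTATTTATTtgttctta
Nlrp4f (chr13:65177273-65177297, minus strand): ttgttggaTTATTTATTggagttaa
Cnot6l (chr5:96071163-96071187, minus strand): ggaagagaTTATTTATTtttgtttc
Zfp36l1 (chr12:80108169-80108193, minus strand): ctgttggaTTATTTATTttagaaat
Zfp36l2 (chr17:84184916-84184940, minus strand): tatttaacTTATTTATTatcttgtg

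Of 11973 tested genes with a 3′ UTR model, 948 (7.92%) held the nonamer on the mRNA strand, and 3565 (29.8%) held the shorter core TATTTAT, which lies inside it. The core stood in 8 of 59 maternal transcripts with a model (13.6%) and in 6 of the 10 members. Maternal transcripts had shorter 3′ UTRs in these models, with a median of 279 bases against 1090 bases over all tested genes. A match gives the letters of the sequence only and does not mark a site that is bound.

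Btg4 and Cnot7 were the most abundant messages of the set. Scaled to exon length, Btg4 (chr9:51060901-51119875) had a median of 1312 CPM per kb over all embryos and Cnot7 (chr8:40492540-40515847) 244 CPM per kb. Pnrc1 (chr4:33245423-33290163) followed at 53.9 and Ythdf2 (chr4:132184912-132212303) at 42.5, then Cnot6l (chr5:96070333-96164171) at 13.1, Pabpn1l (chr8:122619471-122622739) at 8.74, Zfp36l2 (chr17:84183931-84187947) at 6.49, Tut7 (chr13:59771561-59823147) at 3.40, Tut4 (chr4:108459426-108559421) at 0.649 and Zfp36l1 (chr12:80107754-80113013) at 0.432 CPM per kb. The order of Btg4 over Cnot7 held in every embryo and that of Cnot7 over Pnrc1 in all but 2. Neighbours whose mean log2 ratio was smaller than its standard deviation (SD) over embryos were Pnrc1 and Ythdf2, Cnot6l and Pabpn1l, Pabpn1l and Zfp36l2, Zfp36l2 and Tut7, and Tut4 and Zfp36l1.

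**Figure D1:**
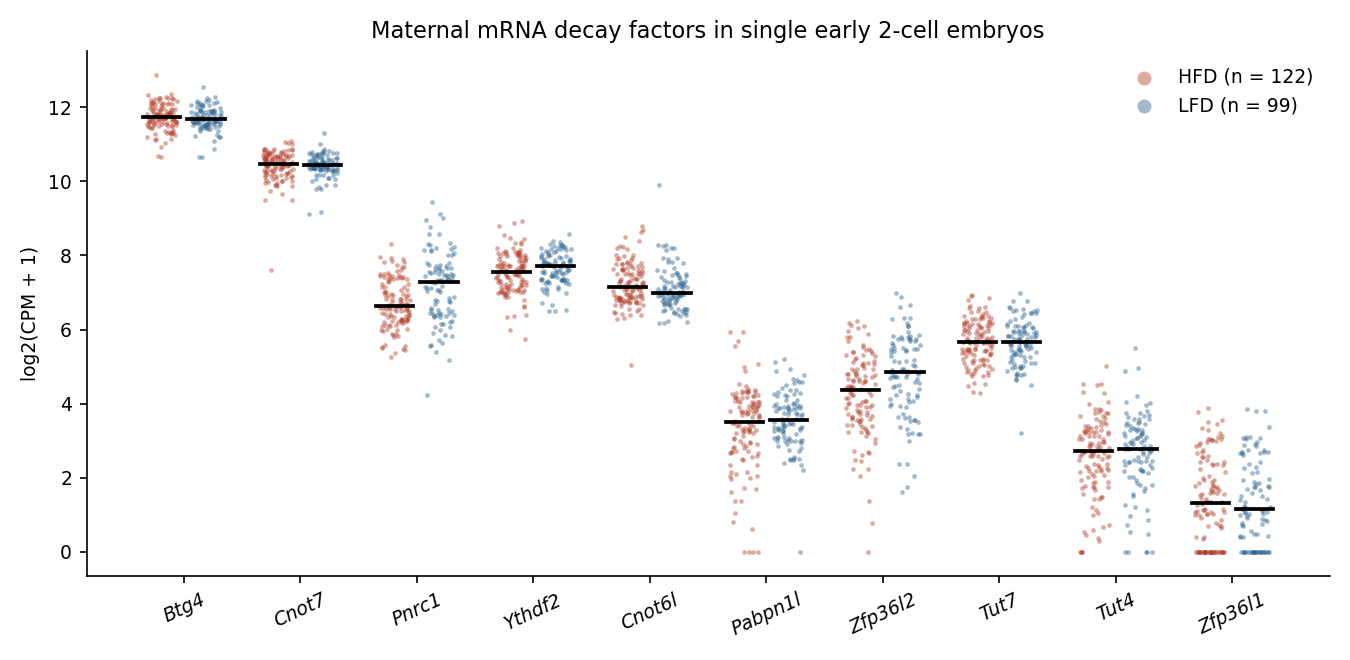
Level of the 10 members, as log2(CPM + 1), in each HFD and LFD (n = 99) embryo. Points are embryos, black bars are medians, and genes stand in the order of their length-scaled level. The diets overlap for every member. The gaps between the medians of the diets are widest for Pnrc1 and Zfp36l2, which were chosen for being lower in HFD embryos.

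The deadenylation factors of the set showed no difference by paternal diet past the threshold. Btg4 ran from 1628 CPM over a median of 3404 to 7555 CPM in HFD embryos, and from 1606 over 3299.9 to 5995 CPM in LFD embryos. Its log2 fold change, HFD over LFD, was 0.094 (standard error, SE, 0.051, edgeR quasi-likelihood test, false discovery rate (FDR) 0.428). Cnot7, the catalytic subunit that BTG4 binds, ran from 194 over 1425 to 2185 CPM in HFD and from 561 over 1393 to 2546 CPM in LFD embryos. The groups overlapped over almost their whole range, with 1 HFD embryo below the lowest LFD embryo and 1 LFD embryo above the highest HFD embryo. Cnot6l, the other catalytic subunit of the set, ran from 31.99 over 142 to 445 CPM in HFD and from 71.8 over 126.3 to 953 CPM in LFD embryos, a log2 fold change of 0.15 (SE 0.089, FDR 0.501).

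The uridylation and poly(A) binding factors of the set were lower in level and likewise not called by diet. Tut7 had medians of 50.2 CPM in HFD (18.4 to 121.8) and 49.9 CPM in LFD embryos (8.22 to 124.97). The groups overlapped, with no HFD embryo outside the LFD range. Tut4, its relative, had medians of 5.595 and 5.87 CPM and was at 0 counts in 4 HFD and 5 LFD embryos. Pabpn1l had medians of 10.4 CPM in HFD (0 to 60.3) and 10.7 CPM in LFD embryos (0 to 35.6). At the median depth 3 counts, the limit that a count of 0 allows, correspond to about 0.525 CPM, and this covers counting error only.

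Of the readers and binding proteins listed by function, Ythdf2 had medians of 188 CPM in HFD (53.1 to 491) and 209 CPM in LFD embryos (89.9 to 380.3). Zfp36l1 was barely detected, with medians of 1.49 and 1.24 CPM and 0 counts in 36 HFD and 25 LFD embryos. Over the 8 members listed by function, log2 fold changes lay between -0.055 (Ythdf2) and 0.15 (Cnot6l). None of the 8 passed FDR 0.05 in edgeR or had an unadjusted p under 0.05, and none passed in limma-voom, where 1 had an unadjusted p under 0.05, or in DESeq2, which gave an adjusted p for 7 of them. Over all genes 318 of 14820 were called by diet (2.15%), 1.26% higher and 0.891% lower in HFD embryos. Without the HFD embryos numbered 31 to 70, Btg4 (0.17) and Pabpn1l (0.31) had an unadjusted p under 0.05, and without the embryos with fewer than 16000 genes Btg4 (0.0997) and Cnot6l (0.25) did, but none of them passed after adjustment (edgeR, lowest FDR 0.0566, for Cnot6l). Btg4 had such a p in other edgeR fits too, among them that with the Y-linked level as a covariate (0.11, FDR 0.313). Pabpn1l had a mean of 2.52 in the HFD embryos numbered 31 to 70, 3.69 in the other HFD embryos and 3.56 in LFD embryos, in log2(CPM + 1).

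Zfp36l2 and Pnrc1 were the members chosen on this contrast. Zfp36l2 was at 0 CPM in the lowest HFD embryo, 19.6 CPM in the median and 74.5 CPM in the highest, against 2.07, 27.8 and 124.8 CPM in LFD embryos. In log2(CPM + 1) its mean was 4.23 ± 1.10 (SD over embryos) in HFD and 4.74 ± 1.12 (SD, n = 99) in LFD embryos. The groups overlapped, and 87 HFD embryos (71.3%) lay below the LFD median, while 3 HFD embryos lay below every LFD embryo and 7 LFD embryos above every HFD embryo.

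Pnrc1 ran from 37.4 over a median of 97.6 to 314 CPM in HFD and from 17.9 over 155 to 693 CPM in LFD embryos. Its means were 6.71 ± 0.65 in HFD (SD over embryos) and 7.13 ± 0.94 in LFD embryos (SD, n = 99), in log2(CPM + 1). Here 92 HFD embryos (75.4%) lay below the LFD median, while 9 LFD embryos lay above and 2 below every HFD embryo. Fitted log2 fold changes were -0.52 (SE 0.14) for Zfp36l2 and -0.54 (SE 0.11) for Pnrc1. The lowest value among the members listed by function was -0.055 (SE 0.062), for Ythdf2. That gap follows from the choice of Zfp36l2 and Pnrc1 on this contrast. Among the 10 members these had large spreads for their level, since Zfp36l2 had a within-diet SD of 1.11 log2 units and Pnrc1 0.79, larger than 92.4% and 92.3% of tested genes whose mean lay within 0.5 log2 units.

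Both differences varied along the numbers that the sample titles give to embryos, whose meaning the labels do not state. In the 11 ranges of 10 numbers that held both diets, HFD minus LFD for Zfp36l2 ran from -1.29 to 0.46 log2 units, with HFD lower in 6 ranges. It was -1.21 for numbers 1 to 10, -0.69 for 11 to 20, -1.29 for 21 to 30 and -1.18 for 71 to 80, but 0.22 for 81 to 90, 0.034 for 91 to 100 and 0.46 for the 10 numbers after 100. For Pnrc1 HFD was lower in 9 of 11 ranges, from -1.31 for numbers 21 to 30 to 0.91 for the 10 numbers after 100, a range with only 4 LFD embryos. Weighted over the ranges, the differences were -0.41 for Zfp36l2 and -0.32 for Pnrc1.

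**Figure D2:**
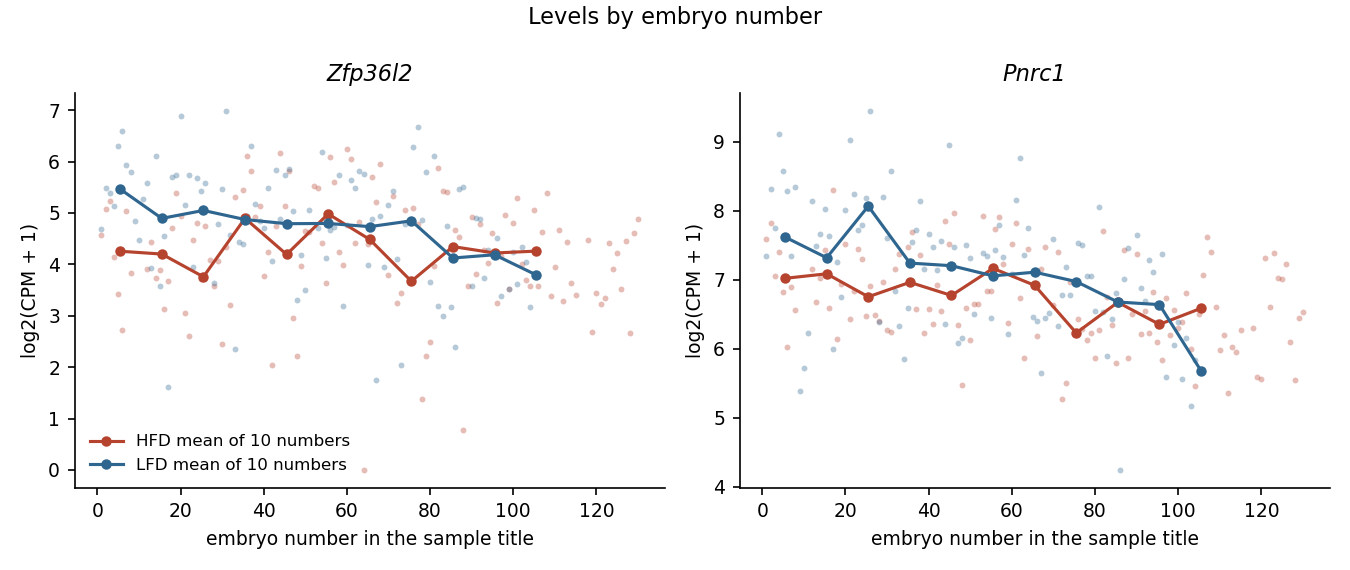
Zfp36l2 (left) and Pnrc1 (right), as log2(CPM + 1), against the embryo number in the sample title. Pale points are embryos and joined points are the means of each diet over ranges of 10 numbers. The LFD mean lies above the HFD mean in 6 of 11 ranges for Zfp36l2 and in 9 of 11 for Pnrc1.

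Some HFD libraries stood apart. The 38 HFD embryos numbered 31 to 70 had a mean of 4.64 for Zfp36l2 and 6.95 for Pnrc1 in log2(CPM + 1), against 4.05 and 6.59 in the other 84 HFD embryos, and without them the log2 fold changes were -0.78 (SE 0.15) and -0.64 (SE 0.12). The summed level of 16 macrophage markers, all with counts and all above a mean of 1 CPM, ran from 4.34 to 12.8 log2 CPM in HFD embryos (median 6.53) and from 5.65 to 7.48 in LFD embryos (median 6.47). It exceeded every LFD embryo in 12 HFD embryos, and 5 of the 9 markers tested were called higher in HFD embryos. Without those 12 the fold changes were -0.54 (SE 0.14) for Zfp36l2 and -0.57 (SE 0.11) for Pnrc1, while 172 genes were called by diet. When limma-voom treated each range of numbers within a diet as a random effect, the values were -0.50 (SE 0.18) and -0.38 (SE 0.12), and 86 genes were called over the whole table. With no random effect limma-voom gave -0.51 (SE 0.15) for Zfp36l2 and -0.39 (SE 0.11) for Pnrc1, and called 330 genes.

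Of 94 further decay genes from a list of CCR4-NOT, BTG/TOB, PAN2-PAN3, decapping, exosome, tailing, reader and nonsense-mediated decay genes, 92 were tested, of which 4 were called higher and 3 lower in HFD embryos, 7.61% of the list against 2.15% of all genes. Their median log2 fold change was 0.0026 against 0.014 over all genes. The list was chosen with earlier results of these data known, so its share is a description and no separate test. Called higher were Celf2, a reader of GU-rich elements (0.25, SE 0.063, FDR 0.00859), the tail-extending polymerase Tent4a (0.18, SE 0.050, FDR 0.0256), and Lsm2 (0.19, SE 0.053, FDR 0.0317) and Lsm1 (0.17, SE 0.051, FDR 0.0494) of the ring that binds deadenylated ends. Called lower were Tob2, an adaptor of CCR4-NOT related to Btg4 (-0.25, SE 0.062, FDR 0.00834), Ttc37 of the Ski complex (-0.24, SE 0.062, FDR 0.0123) and the CCR4-NOT subunit Cnot3 (-0.23, SE 0.068, FDR 0.0444).

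The summed level of maternal transcripts showed no difference by diet past the threshold. It was 15.8 ± 0.24 log2 CPM in HFD (SD over embryos) and 15.8 ± 0.21 in LFD embryos (SD, n = 99), a difference of 0.0042 (2-sided permutation test, p = 0.892). With the mean log2 CPM of these transcripts in place of the sum, the difference was -0.064 (2-sided permutation test, p = 0.0563). The 2-cell level differed by 0.030 (p = 0.476, 2-sided permutation test). Of 61 maternal transcripts tested, 1 was called higher (Oog3, 0.30, SE 0.078, FDR 0.0132) and 1 lower (Tle6 of the subcortical maternal complex, -0.23, SE 0.067, FDR 0.0444) in HFD embryos. None of 35 2-cell transcripts was called by edgeR, and 8 had an unadjusted p under 0.05. Such a p was found by edgeR for 11 of the 61 maternal transcripts and for 1938 of all 14820 genes. The 3 most abundant maternal transcripts, Tcl1 (mean 8866 CPM), Omt2a (4836 CPM) and Omt2b (4771 CPM), had fold changes of -0.051, 0.15 and 0.17 on the log2 scale, none of them called.

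The members were next compared with the maternal level between embryos. The maternal level is the log2 of the summed CPM of the 62 listed maternal transcripts, with 0.5 added. With diet in the model, 7 of 10 members had a slope past FDR 0.05, beside 55.3% of all 14820 genes, 28.5% positive and 26.9% negative. With 4 positive and 3 negative slopes the members stood near that share, so the values below describe single members and not the set. Positive slopes were found for the deadenylation factors Btg4 (1.05, SE 0.093, FDR 6.6e-22), Cnot7 (0.96, SE 0.094, FDR 6.8e-19) and Cnot6l (1.12, SE 0.18, FDR 2.5e-08) and for Pabpn1l (1.13, SE 0.29, FDR 0.000372). That is, the fitted mean count of these messages rose by about 1 log2 unit per log2 unit of maternal transcripts. In the log2(CPM + 1) values of single embryos Pabpn1l showed little of this, with Pearson's r of 0.033 in HFD and 0.048 in LFD embryos. For Cnot6l r was 0.26 and 0.28.

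Negative slopes were found for Zfp36l2 (-1.67, SE 0.32, FDR 1.9e-06), Tut7 (-0.94, SE 0.14, FDR 2.1e-09) and Ythdf2 (-0.65, SE 0.13, FDR 2.7e-06). The slope of Zfp36l2 ranked at 6.07% from the lowest of all tested genes, a rank that ran from 2.19% in LFD embryos alone to 14.8% without embryos with fewer than 16000 genes and 17.2% with the mean log2 CPM of the maternal transcripts as the level. Tut4 (-0.45, SE 0.40), Zfp36l1 (-0.73, SE 0.71) and Pnrc1 (0.019, SE 0.24) had slopes that did not pass. The maternal level and the members were read from the same libraries and share their totals.

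**Figure D3:**
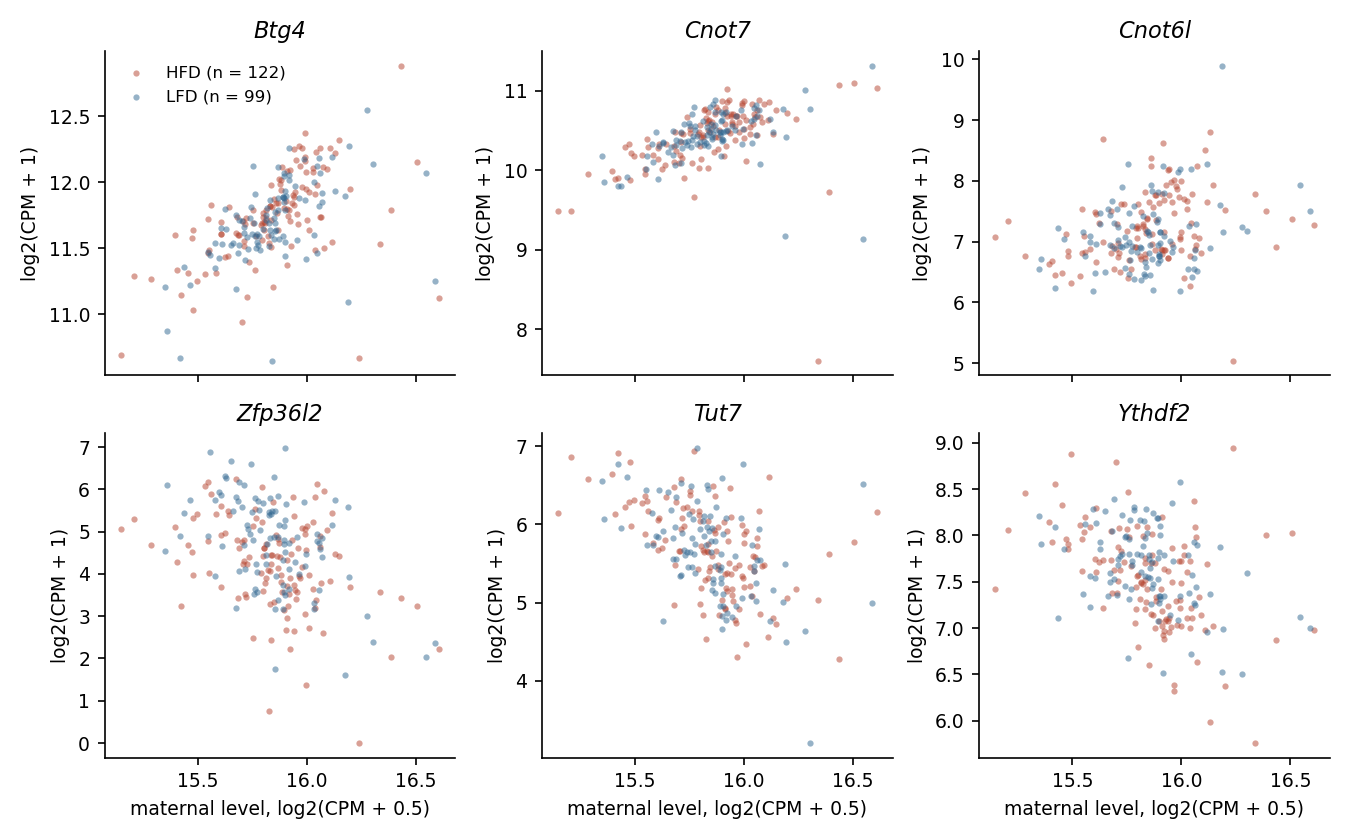
Level of 6 members, as log2(CPM + 1), against the maternal level of the same embryo, in log2(CPM + 0.5). Each point is an HFD or LFD (n = 99) embryo. Btg4, Cnot7 and Cnot6l rise with the maternal level while Zfp36l2, Tut7 and Ythdf2 fall with it, and the lowest point of Cnot7, at 7.61, is an HFD embryo with a maternal level of 16.3.

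The slopes were then fitted within each diet. The 7 members passed with unchanged sign both in HFD and in LFD embryos, where 9 members had enough counts to be tested. Beside them, 49.95% of 11505 genes passed in HFD embryos and 45.9% of 11609 genes in LFD embryos. The slope of Zfp36l2 was -1.23 (FDR 0.00674) in HFD and -2.39 (FDR 3.9e-05) in LFD embryos, and that of Btg4 1.08 (FDR 2.6e-13) and 0.98 (FDR 3.6e-09). No member had a difference between the diets in slope past FDR 0.05 in edgeR (1 of 10 had an unadjusted p under 0.05), beside 0.412% of all genes. The largest such difference was that of Zfp36l1, at 4.06 (SE 1.46, FDR 0.208), and that of Zfp36l2 was 1.2 (SE 0.65, FDR 0.479). The 7 members again passed with ranges of 10 embryo numbers as a factor, so that embryos were compared within a range. In that fit 54.4% of all genes were called, and Zfp36l2 had a slope of -2.25 (FDR 1.6e-10).

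Rank correlations within each diet gave the size of the relation. Over 20 pairs of member and diet, 13 had a Spearman's rho past an adjusted p of 0.05, 6 of 10 members in HFD and 7 of 10 in LFD embryos. The weakest of these had an absolute rho of 0.33 in HFD and 0.26 in LFD embryos, a size that 29.1% and 36.2% of all tested genes reached. Btg4 had a rho of 0.60 in HFD (Pearson's r 0.52) and 0.58 in LFD embryos (r 0.53). Each had a permutation p of 1e-05, the lowest value possible with 100000 permutations, which gave adjusted p of 2.5e-05 for rho and 2.9e-05 for r. Cnot7 had a rho of 0.64 in HFD (r 0.41) and 0.54 in LFD embryos (r 0.33), with permutation p of 1e-05 except for r in LFD embryos (p = 0.0011). Tut7 had a rho of -0.57 in HFD (r -0.53) and -0.51 in LFD embryos (r -0.49), all with a permutation p of 1e-05. Btg4 and Cnot7 thus rose and Tut7 fell with the maternal level in both diets. Ythdf2 had a rho of -0.48 in HFD (r -0.45, permutation p = 1e-05 for both) and -0.36 in LFD embryos (permutation p = 0.0004, r -0.39 with p = 6e-05). For Zfp36l2 rho was -0.33 in HFD (permutation p = 0.00023, adjusted p = 0.00046) and -0.45 in LFD embryos (permutation p = 1e-05), with r of -0.38 and -0.50 (permutation p of 2e-05 and 1e-05). Without the 2 embryos whose maternal level lay farthest from the median, r was, in HFD and LFD embryos, for Zfp36l2 -0.34 and -0.42, for Btg4 0.57 and 0.63, for Cnot7 0.36 and 0.49, for Tut7 -0.58 and -0.58 and for Ythdf2 -0.47 and -0.35. None of these 5 members changed sign. Pnrc1 had a rho of 0.061 in HFD (permutation p = 0.502) and -0.26 in LFD embryos (permutation p = 0.00925, adjusted p = 0.0142), and in LFD embryos it was no longer past the threshold, with a rho of -0.10, after regression on the number of genes with a count. Zfp36l1, whose slope did not pass, had a rho of 0.063 in HFD (permutation p = 0.491) and -0.34 in LFD embryos (permutation p = 0.00057, adjusted p = 0.00095, r -0.35). For 2 members called by their slope the rank correlation did not pass in every diet. Cnot6l had a rho of 0.36 in HFD (permutation p = 3e-05) and 0.15 in LFD embryos (permutation p = 0.139, adjusted p = 0.174), and Pabpn1l one of 0.069 in HFD and 0.14 in LFD embryos, neither past the threshold.

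The maternal level went with other properties of the library. It correlated with the number of genes with a count, at a rho of -0.14 in HFD (permutation p = 0.138, adjusted p = 0.206) and -0.43 in LFD embryos (permutation p = 2e-05, adjusted p = 6e-05), with r of -0.35 and -0.58 (permutation p of 8e-05 and 1e-05), and r without the 2 farthest embryos of -0.28 and -0.44. With the total counts rho was -0.0091 in HFD and -0.0053 in LFD embryos. These were 6 relations in all, with the 2-cell level below. With the number of genes as a covariate the 7 members still passed, beside 59.6% of all genes. The slopes of Btg4 and Zfp36l2 were then 1.35 and -1.82. Of the 7, Ythdf2 moved most, to -1.10, and its slope was -1.06 with the mean log2 CPM as the level and -1.01 without embryos with fewer than 16000 genes. Cnot7 moved to 0.57 with the mean log2 CPM and Tut7 to -1.49 without those embryos. With the maternal level as a covariate, the fold changes by diet of Zfp36l2 and Pnrc1 were -0.47 (SE 0.13) and -0.54 (SE 0.11).

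Correlations with single maternal transcripts are given as a description over 61 transcripts that share their libraries. Btg4 had a median rho of 0.34 with them, after subtraction of the diet means, with 52 of 61 positive and a highest rho of 0.70 for Nlrp4f, against a median of -0.020 over all tested genes. Zfp36l2 had a median rho of -0.17, with 47 of 61 negative and a lowest rho of -0.51 for E330034G19Rik, against 0.034 over all tested genes. Ythdf2 and Tut7 had medians of -0.33 and -0.30, with 49 and 50 of 61 negative, and Pnrc1 one of -0.030. The median rho of Zfp36l2 was -0.20 with the 8 maternal transcripts that hold TATTTAT in the 3′ UTR and -0.17 with the 51 that do not. For Btg4 the medians were 0.50 and 0.28, in 3′ UTRs with a median length of 1237 and 244 bases.

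The level of 2-cell transcripts, which mark activation of the embryonic genome, was summed over 40 genes in the same way. Slopes of the 7 members called on the maternal level were smaller in size on it, whereas those of Zfp36l1 (-0.84, SE 0.49) and Pnrc1 (-0.24, SE 0.17), neither of which passed, were not. Past FDR 0.05 were 4 of 10 members, beside 13.8% of all genes, 5.81% positive and 8% negative. Cnot7 (0.44, SE 0.075, FDR 2.1e-06) and Btg4 (0.26, SE 0.077, FDR 0.0108) had positive slopes, and Zfp36l2 (-0.73, SE 0.23, FDR 0.0169) and Tut7 (-0.49, SE 0.12, FDR 0.00286) negative ones. The 2 levels were themselves correlated, with a rho of 0.53 in HFD and 0.39 in LFD embryos (permutation p of 1e-05 and 9e-05, adjusted p of 6e-05 and 0.00018) and r of 0.41 and 0.30 (permutation p of 2e-05 and 0.00241). Without the 2 farthest embryos r was 0.42 and 0.36. Within HFD embryos only Cnot7 passed, beside 5.70% of 11505 genes. Within LFD embryos none of 9 members did (edgeR, 4 with an unadjusted p under 0.05), beside 4.10% of 11609 genes. With the maternal level as a covariate the slopes on the 2-cell level were 0.031 for Btg4 (FDR 0.868), -0.31 for Zfp36l2 (FDR 0.5) and -0.20 for Tut7 (FDR 0.396). In that fit 3 of 10 members passed, beside 7.95% of all genes. They were Cnot7 (0.23, FDR 0.0225), Ythdf2 (0.54, FDR 1.7e-05) and Cnot6l (-0.41, FDR 0.0497). With the 2-cell level as a covariate the 7 members still passed on the maternal level, beside 52.9% of all genes. Their slopes there included 1.03 for Btg4 and -1.49 for Zfp36l2.

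**Figure D4:**
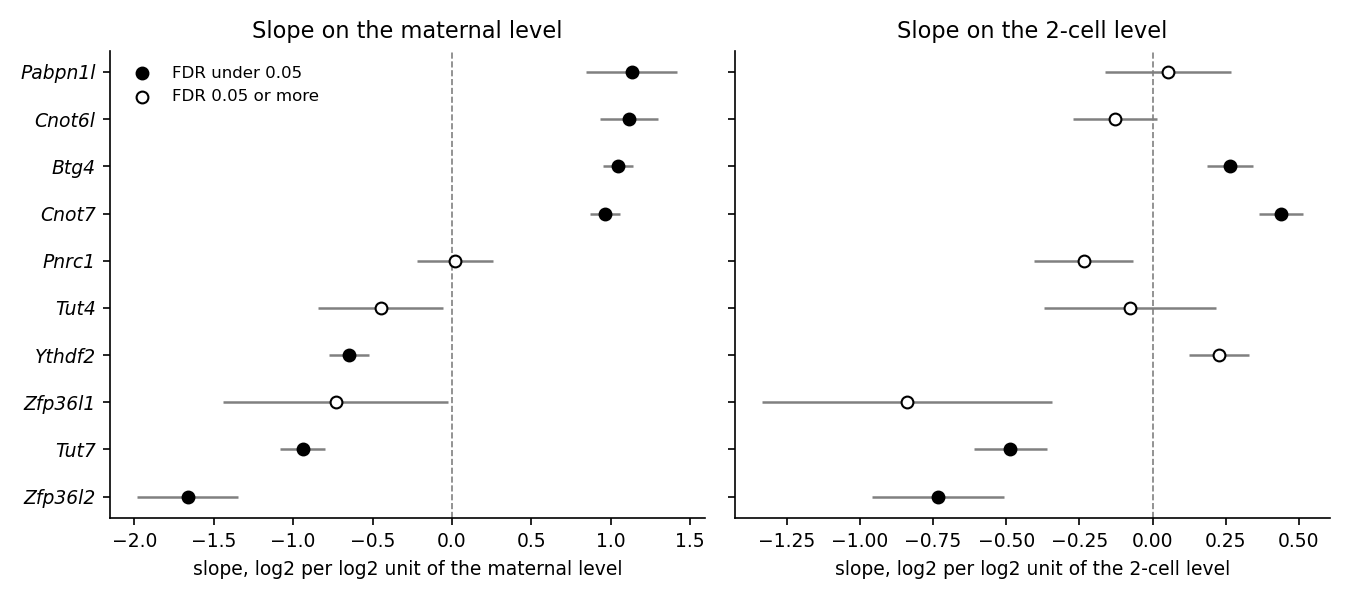
Slope of each member on the maternal level (left) and on the 2-cell level (right), in log2 units per log2 unit, over the embryos of both diets with diet in the model. Points are edgeR estimates, bars are 1 SE, and filled points have an FDR under 0.05. Btg4, Cnot7, Cnot6l and Pabpn1l lie above 0 and Zfp36l2, Tut7 and Ythdf2 below 0 on the left, and 4 members are filled on the right.

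Among the 92 other decay genes tested, 24 had a positive and 25 a negative slope on the maternal level, 53.3% in all, close to the share of all genes. Over all genes 28.5% were positive and 26.9% negative. The CCR4-NOT list had 3 positive and 2 negative slopes among 10 genes, and the BTG/TOB list 3 negative and 0 positive among 5. The PAN2-PAN3 list had 2 positive among 2, and the exosome list 3 positive and 6 negative among 15. The tailing list had 3 positive and 3 negative among 12, and the reader list 4 positive and 3 negative among 17. Of the decapping list, 9 of 21 were positive and 2 negative, with Lsm3 (2.43, SE 0.20, FDR 3.3e-24), Lsm7 (1.82, SE 0.16, FDR 1.3e-21) and Lsm14a (0.84, SE 0.093, FDR 2.0e-15) having the smallest p. Cnot4 (1.45, SE 0.13), the oocyte poly(A) binding protein Pabpc1l (2.75, SE 0.34) and Ybx2, an mRNA-packaging protein of germ cells (1.29, SE 0.18), were positive as well. Negative were the adaptors Tob2 (-1.35, SE 0.11, FDR 1.1e-25) and Tob1 (-1.87, SE 0.19), the exosome nucleases Exosc10 (-1.36, SE 0.17) and Dis3 (-1.66, SE 0.21), and the mRNA binding protein Igf2bp1 (-2.11, SE 0.27). Of the nonsense-mediated decay genes 6 of 10 had a negative slope and none a positive one.

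On the 2-cell level 7 of the 92 had a positive and 8 a negative slope, 16.3% against 13.8% of all genes. Positive were Tent2 (0.36, SE 0.083), Ythdf3 (0.31, SE 0.082), Edc4 (0.50, SE 0.14), Pan2 (0.32, SE 0.098), Ttc37 (0.31, SE 0.099) and Dcp1a (0.45, SE 0.15). Negative were Exosc3 (-0.47, SE 0.12), Btg3 (-0.75, SE 0.21), Ythdf1 (-0.63, SE 0.18), Tent4b (-0.49, SE 0.15) and Exosc2 (-0.49, SE 0.16). All of these passed FDR 0.05 in edgeR.

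Pairs of members were compared over embryos. Of 45 pairs, compared after subtraction of the diet means, 23 had a Spearman's rho past an adjusted permutation p of 0.05, 11 positive and 12 negative. The weakest of the 23 had an absolute rho of 0.16, a size that 29.6% of all pairs of tested genes reached. The highest was that of Zfp36l2 and Pnrc1, at a rho of 0.54 and an r of 0.52 (permutation p = 1e-05 for both, adjusted p of 3.5e-05 and 4.1e-05), and at 0.46 in HFD and 0.61 in LFD embryos taken alone. Zfp36l2 and Pnrc1 thus went together between embryos of the same diet. Ythdf2 and Tut7 followed at 0.51 (r 0.50) and Btg4 and Cnot7 at 0.49 (r 0.42). The lowest were those of Btg4 with Ythdf2, at -0.51 (r -0.50), and of Cnot6l with Ythdf2, at -0.50 (r -0.57), and these pairs had the same permutation p. Again without the 2 embryos farthest from the median, that of the gene named first, r was 0.56 for Zfp36l2 and Pnrc1, 0.49 for Ythdf2 and Tut7, 0.43 for Btg4 and Cnot7, -0.47 for Btg4 and Ythdf2 and -0.54 for Cnot6l and Ythdf2.

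**Figure D5:**
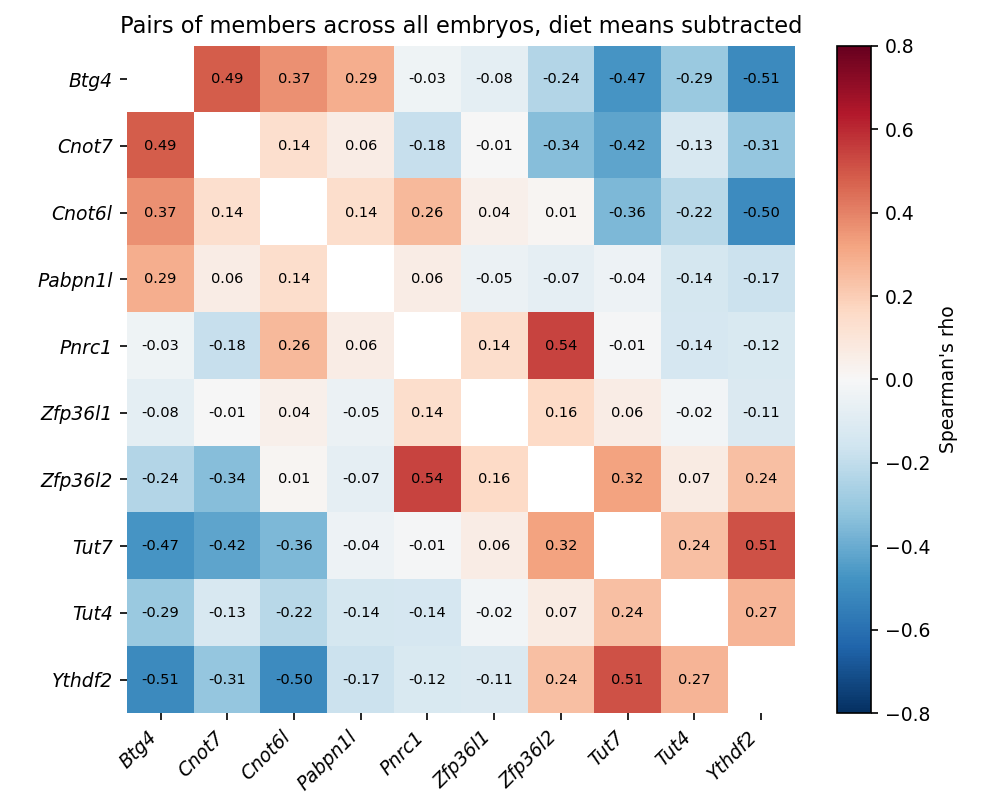
Spearman's rho between members over the embryos of both diets, after subtraction of the diet means. Cells give the value, red for positive and blue for negative. Btg4, Cnot7 and Cnot6l are negative with Tut7 and Ythdf2, and the pair of Zfp36l2 and Pnrc1 is the highest at 0.54.

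Genes most like Zfp36l2 over the embryos of both diets, again with the diet means subtracted, were Hes1 (rho 0.72), a target of Notch signalling, Phlda1 (0.68), Snx18 (0.67), Gm28592 (0.66), which overlaps Phlda1, and Mlxip (0.65). Each of these 5 had a negative slope on the maternal level, from -0.92 for Mlxip to -1.66 for Snx18, with FDR of at most 0.00762 in edgeR, and none was called by diet. Those most like Pnrc1 were Parp12 (0.73), Noct (0.68), a circadian enzyme first described as a deadenylase, E2f5 (0.67), Mia2 (0.66) and Usp1 (0.64). Noct was lower in HFD embryos (-0.38, FDR 0.0168), and the others most like Pnrc1 were not called by diet. Since Noct was named for following Pnrc1, which was chosen on that contrast, its FDR is no separate test. Parp12 and E2f5 had positive slopes on the maternal level (0.78 and 0.61, FDR 9.5e-05 and 0.000317). These correlations are descriptions over embryos that share library depth and composition.

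Some counts are uncertain because genes overlap. Cnot7 overlaps Zdhhc2 and Vps37a on the opposite strand, and its correlation with Zdhhc2, with diet means subtracted, had a rho of 0.94. Smart-seq2 does not mark strand, so reads from the shared stretch cannot be assigned to 1 of these genes. Tut7 overlaps Etohd2, also on the opposite strand, and the overlaps of Zfp36l2, Btg4, Tut4 and Pabpn1l are with genes of at most 0.510 CPM on average. Cnot6l, Zfp36l1, Ythdf2 and Pnrc1 overlap no other gene of the table.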

How the data were processed

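Single early 2-cell embryos were grouped by the paternal diet in their titles (122 HFD, 99 LFD). The deposited values are raw read counts per gene. Per the study's methods and the submitters' processing notes, the authors trimmed adaptors with Trim Galore 0.6.6, checked quality with MultiQC 1.11 and aligned reads with STAR 2.7.10a to GRCm38 carrying the ST mitochondrial sequence. Per the file headers, featureCounts 2.0.3 made the table from exons of the Ensembl 102 annotation, with strand set to 2 and both ends of a pair required to align. Of the counts above 0, 65.8% were even. Smart-seq2 does not mark strand. PCR copies carry no molecular identifiers. The 50 closest pairs of libraries differed by a chi-square of at least 16.1 per gene, so none was merged.

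From these counts edgeR 4.0.16 (R 4.3.3; quasi-likelihood test, TMM, filterByExpr by diet, Benjamini-Hochberg over all genes, FDR 0.05) tested HFD over LFD, the slopes on the maternal and 2-cell levels with diet as a covariate, and their interaction. SE is the estimate divided by the root of the F statistic. CPM used all counts of the library, with 1 added before log2, or 0.5 for a summed level. Group levels and correlations used 100000 permutations in Python 3.11.15 with numpy 2.4.6, and p-values of correlations were adjusted over 20 pairs of member and diet, 45 pairs of members or 6 relations of the maternal level. Alternatives used DESeq2 1.42.0, limma 3.58.1, other scalings, covariates and subsets of embryos. On simulated data with 2881 genes, edgeR recovered 70.1% of contrasts of 0.5 and 95.8% of contrasts of 1 on the log2 scale. Of simulated slopes on the maternal level, over 2873 genes, it recovered 29.2% of those of 0.5 and 65.6% of those of 1. Members and lists were chosen with earlier results of these data known. Besides the members, genes were named by rule: up to 6 called decay genes per direction and comparison with the smallest p, the 3 most abundant and up to 4 called maternal transcripts, and the 5 genes most correlated with Zfp36l2 and with Pnrc1. Some genes that this rule names are not reported here. Other genes named for a correlation, and the sequences shown, were chosen after their values were seen. Sequences came from GENCODE M21 models of GRCm38.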

Additional observations from a re-analysis of the deposited data

How the results depend on the processing

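The number of genes called by diet was 318. It was 579 without embryos with under 16000 genes, 175 without HFD embryos 31 to 70 (60 of them higher), 172 without the 12 HFD embryos above every LFD embryo in macrophage markers, 7030 of 45512 with no low-count filter (4943 higher and 2087 lower), and 86 with number ranges of 1 diet as a random effect. Under RLE scaling 164 genes were higher and 172 lower, against 186 and 132. Slopes on the maternal level were called for 8202 genes, and for 5329 in LFD embryos alone. Slopes on the 2-cell level were called for 2047 genes, 656 in HFD embryos alone, 476 in LFD embryos alone, 4306 with the mean log2 CPM as the level and 1178 with the maternal level as covariate. HFD minus LFD of the maternal level turned from 0.0042 (2-sided permutation test, p = 0.892) to -0.064 with the mean log2 CPM as the level (p = 0.0563). Without HFD embryos 31 to 70 it was -0.018 (p = 0.595). That of the 2-cell level turned from 0.030 to -0.019 with the mean log2 CPM (p = 0.647). Subsets that leave out embryos test fewer samples, and the cause of none of these changes was tested. Covariates that were the maternal or 2-cell level, the level without the 3 highest transcripts, number ranges of 1 diet as a random effect and the removal of the 12 embryos were chosen after seeing the data.

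Same-numbered embryos of the 2 diets were compared as a check of pairing. Their deviations correlated at a median of 0.030 over 94 pairs (-0.55 to 0.58), 37 pairs were above 0.1, and 1 HFD embryo was closest to the LFD embryo of its own number, so the numbers were taken as names. With a replicate block on the number 508 genes were called (206 higher and 302 lower), against 633 (331 higher and 302 lower) in the same embryos with no replicate block. The negative binomial dispersions of the blocked fit were those without the block. The values of Zfp36l2 and Pnrc1 were -0.44 (SE 0.18) and -0.42 (SE 0.11) with it.

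Of the members' values, 26 turned sign, none of them past the threshold. By diet these were Zfp36l1 (-0.0012 without HFD embryos 31 to 70, -0.084 and -0.25 without and with the block), Tut4 (0.051 without embryos with under 16000 genes) and Pabpn1l (-0.0031 with the macrophage level and -8.7e-05 with the maternal level as covariate, -0.024 without the 12 embryos, -0.22 with the block, -0.27 with limma-voom, and -0.29 and -0.26 with number ranges of both diets or of 1 diet as a random effect). For the slope on the maternal level it was Pnrc1 (-0.33 in LFD embryos alone, -0.037 without the 3 highest transcripts, -0.42 with ranges as a factor). For the slope on the 2-cell level these were Cnot6l (0.043 in HFD embryos alone, 0.057 without embryos with under 16000 genes), Tut4 (0.079 with the maternal level) and Pabpn1l (-0.085 in LFD embryos alone, -0.097 without embryos with under 16000 genes, -0.11 with the mean log2 CPM, -0.27 with the maternal level, -0.068 with ranges). For the difference between the diets in slope these were, without embryos with under 16000 genes, Btg4 (-0.021), Cnot6l (0.48) and Ythdf2 (-0.48), and Btg4 with the number of genes as covariate (-0.15). Another 14 values lost and 8 gained the threshold with the same sign, of which 11 and 2 were slopes on the 2-cell level. The slope of Tut4 on the maternal level was called with the mean log2 CPM as the level (-1.48) or without the 3 highest transcripts (-1.06). The other 397 values kept their sign and side of the threshold.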
